A study of Homo sapiens with 35 samples.

Results

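The replication-dependent histone genes, as taken here, are 69 of the 28503 genes in the table of RNA sequencing counts. They were chosen by name alone, as every entry whose symbol begins with HIST1H, HIST2H, HIST3H or HIST4H, and no measured value entered the choice. They comprise 6 linker histone H1 genes, 16 H2A, 20 H2B, 13 H3 and 14 H4 genes. By cluster, 55 carry HIST1 names, 10 HIST2, 3 HIST3 and 1 HIST4. RefSeq marks 3 of the 69 as transcribed pseudogenes, HIST1H2APS1, HIST2H2BA and HIST2H2BC, and they are counted in their classes. Counts sufficed for a test in 57 of the 69, HIST2H2BA and HIST2H2BC among them. All RNA came from DU145, a line of prostate carcinoma cells that was set up from a metastasis in the brain. Cells carried a short hairpin RNA against ZMYND8 (shZMYND8), against JARID1D (shJARID1D) or against luciferase (shLuciferase, the control), with 2 libraries each. ZMYND8 is a chromatin reader of modified histone H3 tails, and JARID1D, encoded by KDM5D, is an H3 lysine 4 demethylase. All groups share the same parental line. The sources used here give neither the number of hairpins per target nor whether replicate libraries were separate cultures, so p-values measure the spread between these libraries only.

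Histone proteins package DNA: H2A, H2B, H3 and H4 form the nucleosome core, and H1 binds the linker DNA between nucleosomes. Most of their genes lie in clusters and are transcribed mainly in S phase, when new DNA needs new nucleosomes, under the coactivator NPAT. Their messages end in a stem-loop rather than a poly(A) tail. SLBP binds that stem-loop and the U7 small nuclear ribonucleoprotein directs the cut. Replacement histones such as H2A.Z are also made outside S phase, from polyadenylated messages. In a culture, a smaller share of cells in S phase and less histone RNA per S-phase cell cannot be told apart in such data.

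The promoters of a few members are printed because their known elements differ by histone class, and the results below are arranged by class. Each sequence is the 150 bases before the RefSeq start of transcription in GRCh38.p14, on the minus strand and read 5′ to 3′. Capitals mark matches on either strand to the CCAAT box, to the TATA box core TATAAA, to the octamer ATTTGCAT known to be bound by POU2F1, or to GGTCCG, a core of the H4 element known to be bound by HINFP.
HIST1H3G, chr6:26271414-26271563: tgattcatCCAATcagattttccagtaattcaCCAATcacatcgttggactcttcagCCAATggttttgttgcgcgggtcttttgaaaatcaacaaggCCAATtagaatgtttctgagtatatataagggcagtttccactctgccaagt
HIST1H1B, chr6:27867589-27867738: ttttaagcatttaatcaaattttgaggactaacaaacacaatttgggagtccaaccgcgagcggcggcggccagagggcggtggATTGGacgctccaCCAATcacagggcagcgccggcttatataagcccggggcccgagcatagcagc
HIST1H2AM, chr6:27893186-27893335: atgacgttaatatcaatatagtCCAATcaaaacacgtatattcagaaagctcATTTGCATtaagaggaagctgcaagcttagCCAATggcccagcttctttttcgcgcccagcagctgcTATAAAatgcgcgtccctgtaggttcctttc
HIST1H4L, chr6:27873535-27873684: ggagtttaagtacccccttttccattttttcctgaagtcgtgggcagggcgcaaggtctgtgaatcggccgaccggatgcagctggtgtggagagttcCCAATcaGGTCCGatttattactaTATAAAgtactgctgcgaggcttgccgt
HIST4H4, chr12:14771132-14771281: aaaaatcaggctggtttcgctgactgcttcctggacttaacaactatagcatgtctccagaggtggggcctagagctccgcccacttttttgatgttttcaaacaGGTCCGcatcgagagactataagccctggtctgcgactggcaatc
HIST1H3G and HIST1H4L had the largest falls of their classes in shZMYND8, HIST1H1B the largest fall of the H1 genes, HIST1H2AM shares its promoter with the H2B gene HIST1H2BO, and HIST4H4 stands on another chromosome.

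RefSeq promoter windows, from 250 bases before to 50 bases after the start, were matched for 56 of the 69 members. CCAAT lay in 47 of these 56 windows (83.9%), against 39.7% of the windows of all 27305 genes. TATAAA lay in 38 (67.9%), against 13.99% of all windows. The octamer lay in 21 (37.5%), against 2.19% of all windows, and these were 11 of 14 H2A, 9 of 13 H2B, 1 of 11 H3, 0 of 6 H1 and 0 of 12 H4 windows. GGTCCG lay in 14 (25.0%), against 13.4% of all windows. Of the H4 windows 11 of 12 held it, against 3 windows of all other classes, whereas CCAAT was in 3 of 12 H4 windows and in every H1, H2A, H2B and H3 window. None of the 4 motifs contains another. The windows of paired H2A and H2B genes overlap, so their matches are not independent, and a match is a description of letters only.

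The deposited counts summed to between 22925611 and 25001300 per library. Levels are given as CPM, the count of a gene relative to its TMM-scaled library size, with no correction for gene length. A gene without fragments could lie at up to 0.109 to 0.145 CPM, depending on the library, by counting error alone. Epithelial KRT8 and KRT18 were detected in every library, whereas the prostate luminal marker KLK2 had no fragment in any library. ZMYND8 measured 35.5 and 33.2 CPM in shZMYND8, 69.7 and 63.7 CPM in shJARID1D, and 64.7 and 52.7 CPM in shLuciferase. KDM5D measured 55.5 and 59.9 CPM in shZMYND8, 19.6 and 17.9 CPM in shJARID1D, and 58.1 and 61.0 CPM in shLuciferase. Each target was therefore lowest in the libraries labelled with its hairpin.

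The histone genes differed between the libraries of a group mostly in the same direction. In shZMYND8, 45 of the 57 tested members were higher in the library labelled replicate 2 than in that labelled replicate 1, with a median log2 difference of 0.13. The same held for 53 members in shJARID1D, with a median of 0.45, and for 55 members in shLuciferase, with a median of 0.35. The median over all genes tested was 0.00 in each group. The median absolute log2 difference was 0.19 over the members and 0.14 over all genes in shZMYND8, 0.45 and 0.15 in shJARID1D, and 0.35 and 0.24 in shLuciferase.

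In shZMYND8 the summed level of every histone class was lower than in both other groups, in both libraries. H1 genes summed to 1553 and 1721 CPM in shZMYND8, 2307 and 2869 CPM in shJARID1D, and 2289 and 2570 CPM in shLuciferase. H2A genes summed to 1197 and 1327 CPM in shZMYND8, 1724 and 2292 CPM in shJARID1D, and 1662 and 2274 CPM in shLuciferase. H2B genes summed to 1876 and 2086 CPM in shZMYND8, 2451 and 3175 CPM in shJARID1D, and 2611 and 3233 CPM in shLuciferase. In these 3 classes the shZMYND8 mean was 67.4% (H1), 64.1% (H2A) and 67.8% (H2B) of the shLuciferase mean. H3 genes summed to 697 and 800.3 CPM in shZMYND8, 1088 and 1505 CPM in shJARID1D, and 1128 and 1529 CPM in shLuciferase. H4 genes summed to 510.3 and 663 CPM in shZMYND8, 713 and 1019.8 CPM in shJARID1D, and 765 and 924 CPM in shLuciferase. The shZMYND8 mean was 56.3% of the shLuciferase mean for H3 and 69.4% for H4. For all members together it was 65.5%, and the shJARID1D mean was 100.8%. No shZMYND8 library overlapped a library of another group in any class, while the shJARID1D and shLuciferase libraries overlapped in every class. These sums carry no test of their own, since 2 libraries against 2 allow no exact permutation p below 0.333.

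**Figure D1:**
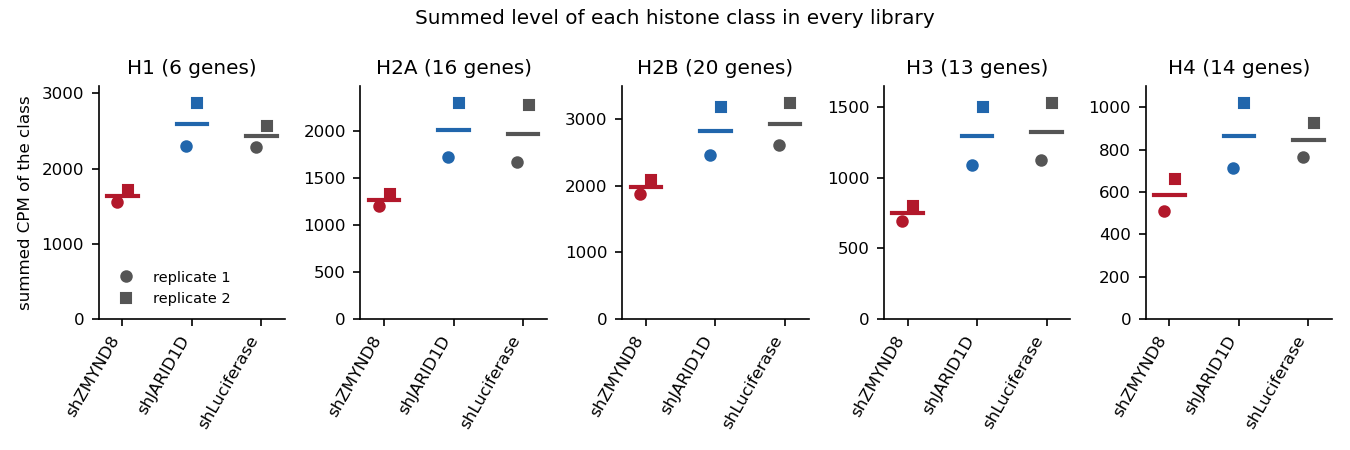
Summed CPM (vertical axis, from 0) of the members of each histone class in the shZMYND8, shJARID1D and shLuciferase libraries. Circles are libraries labelled replicate 1, squares replicate 2, and bars the group means. In each panel both shZMYND8 points lie below all others, and the replicate 2 point is the higher of every pair.

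Gene by gene, 27 of the 57 tested members were lower in shZMYND8 than in shLuciferase at an adjusted p under 0.05 (edgeR's quasi-likelihood test, Benjamini-Hochberg over 15867 genes), and 30 did not pass. Over all genes tested, 7.34% passed as lower. Over all genes 8.89% passed as higher, but no member did, by edgeR, DESeq2 or limma voom, or at an unadjusted p under 0.05 by edgeR. The median log2 fold change of the tested members was -0.64, against -0.01 for all genes, with a range from -2.22 to 1.00. In 47 members both shZMYND8 libraries lay below both shLuciferase libraries, against 27.8% of all genes. Mean counts of at least 50 were reached by 48 tested members, the 27 among them. Leaving out 1 library moved the count to 4 without shZMYND8 replicate 1, 8 without shZMYND8 replicate 2, 42 without shLuciferase replicate 1 and 18 without shLuciferase replicate 2, while 28 and 30 members passed without shJARID1D replicate 1 or 2. The median in these fits stayed between -0.75 and -0.46.

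**Figure D2:**
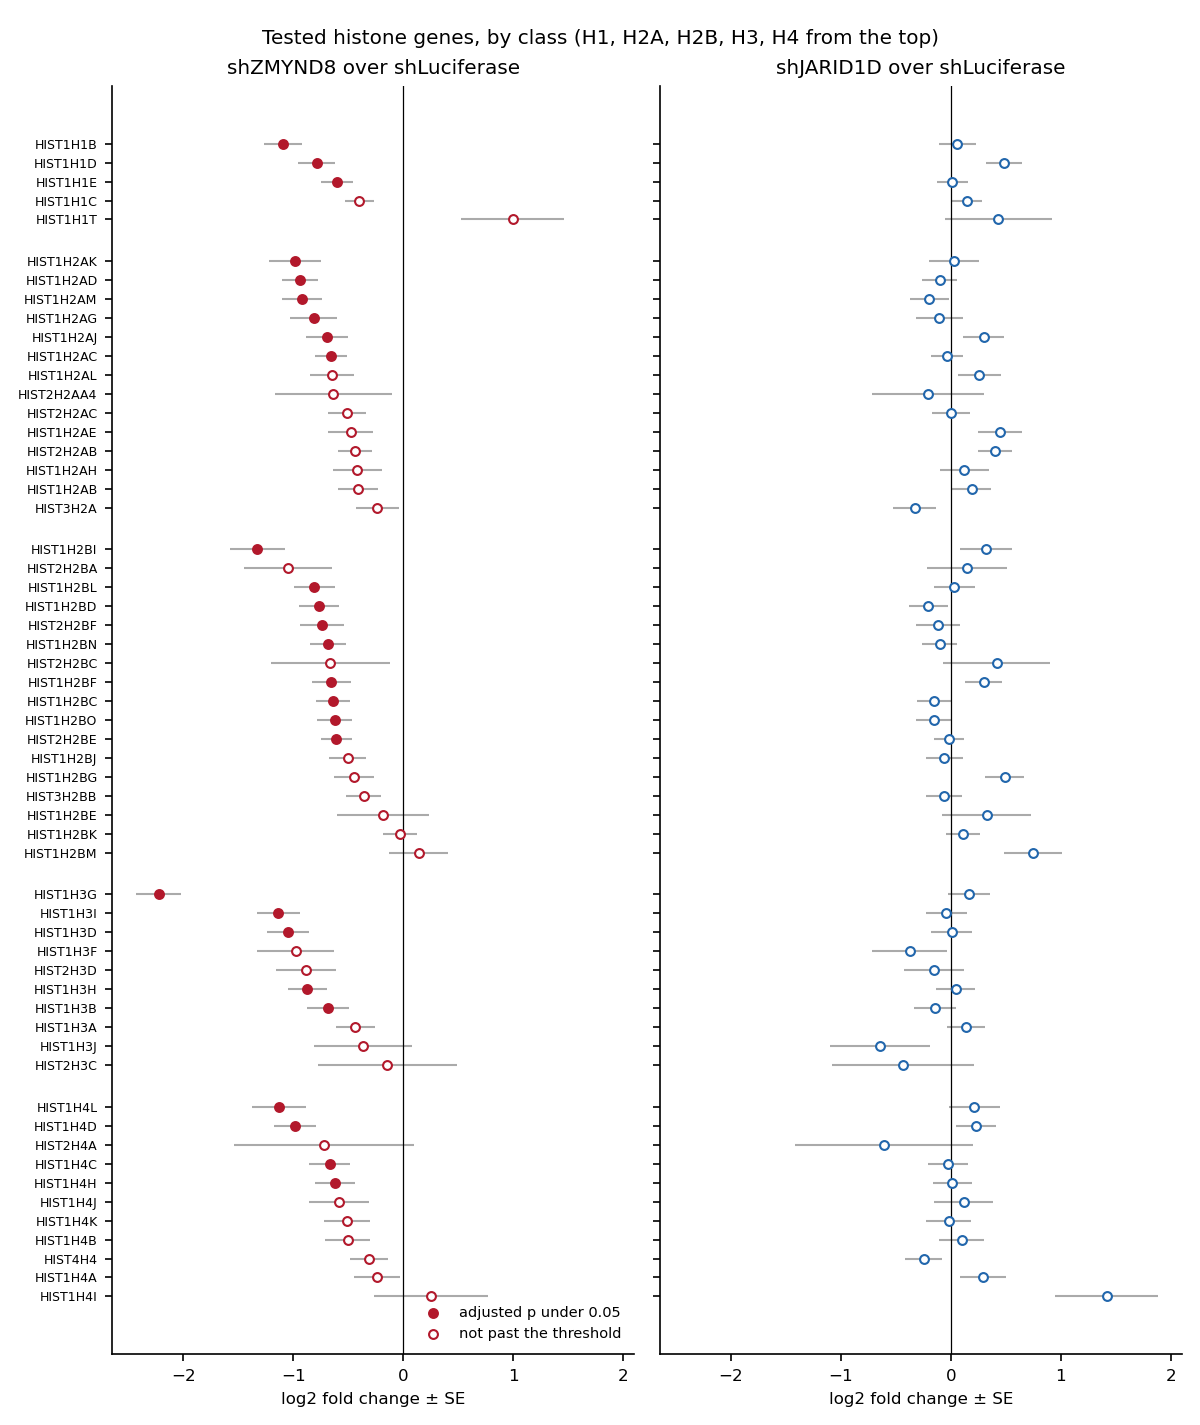
Log2 fold change over shLuciferase (horizontal axis) of each tested member in shZMYND8 (left) and shJARID1D (right), with bars of 1 standard error. Filled points passed an adjusted p of 0.05, 27 of 57 on the left and 0 of 57 on the right.

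**Figure D3:**
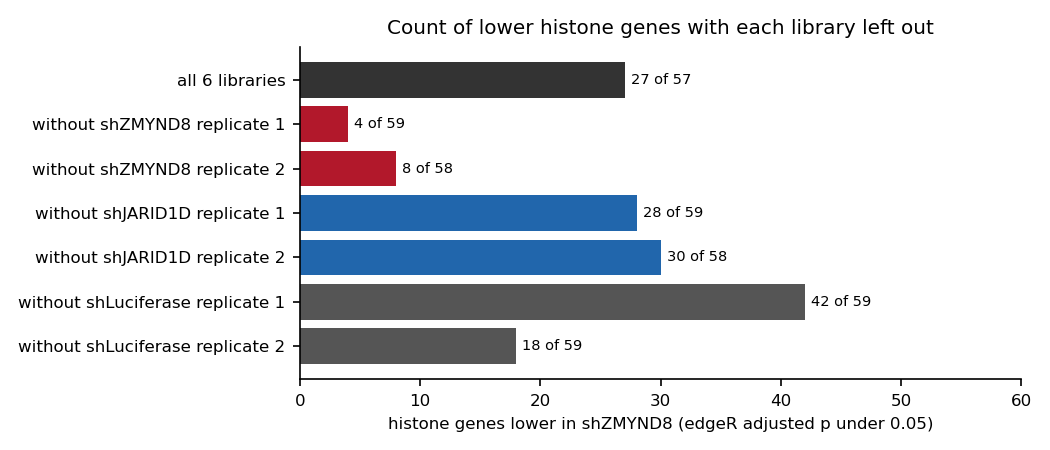
Number of members called lower in shZMYND8 than in shLuciferase (horizontal axis) with all 6 libraries and with each library left out, beside the number tested. The count ran from 4 without shZMYND8 replicate 1 to 42 without shLuciferase replicate 1.

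Of the 5 tested H1 genes, 3 fell in shZMYND8 against shLuciferase, beside 7.34% of all genes. In 27.8% of all genes both shZMYND8 libraries lay below both shLuciferase libraries. HIST1H1B, a linker histone of dividing cells, measured 183 and 206 CPM in shZMYND8, 357 and 505 CPM in shJARID1D, and 384 and 445 CPM in shLuciferase. It fell by 1.09 ± 0.17 (log2, SE; adjusted p = 0.00304 by edgeR), its shZMYND8 libraries standing apart from all others. It stayed past the threshold with any single library left out, with an adjusted p between 0.00187 and 0.0461, and was singled out after its values were seen. HIST1H1E measured 539 and 572 CPM in shZMYND8, 742 and 959 CPM in shJARID1D, and 812 and 874 CPM in shLuciferase (log2 fold change -0.60 ± 0.14, adjusted p = 0.0189). HIST1H1D measured 11.7 and 9.83 CPM in shZMYND8, 22.6 and 29.4 CPM in shJARID1D, and 17.7 and 19.4 CPM in shLuciferase (-0.78 ± 0.17, adjusted p = 0.0126). HIST1H1C, which is also made as polyadenylated RNA, measured 818 and 932 CPM in shZMYND8, 1184 and 1374 CPM in shJARID1D, and 1076 and 1231 CPM in shLuciferase. Its libraries did not overlap, but its log2 fold change of -0.40 ± 0.13 did not pass (adjusted p = 0.0725). Of the H1 counts, HIST1H1C took 49.7%, HIST1H1E 33.8% and HIST1H1B 15.6%, as means over all libraries and without correction for length. The testis H1 gene HIST1H1T had 30 and 20 fragments in shZMYND8, 18 and 11 in shJARID1D, and 9 and 14 in shLuciferase, with a log2 fold change of 1.00 ± 0.47 that did not pass (adjusted p = 0.179).

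Of 14 tested H2A genes, 6 fell in shZMYND8, beside 7.34% of all genes, and the class median was -0.64. Those 6 were HIST1H2AK, HIST1H2AD, HIST1H2AM, HIST1H2AG, HIST1H2AJ and HIST1H2AC. HIST1H2AC, a core histone gene that also gives polyadenylated RNA, measured 264.1 and 265.0 CPM in shZMYND8, 365 and 448 CPM in shJARID1D, and 374 and 461 CPM in shLuciferase (log2 fold change -0.66 ± 0.14, adjusted p = 0.0140 by edgeR). HIST1H2AG measured 192 and 242 CPM in shZMYND8, 295 and 415 CPM in shJARID1D, and 307 and 456 CPM in shLuciferase (-0.81 ± 0.22, adjusted p = 0.0310). In both genes the shZMYND8 libraries lay below all others. The HIST3 gene HIST3H2A measured 10.1 and 8.89 CPM in shZMYND8, 8.06 and 9.73 CPM in shJARID1D, and 9.45 and 12.9 CPM in shLuciferase. Its groups overlapped, and it did not pass (-0.24 ± 0.19, adjusted p = 0.451).

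Of 17 tested H2B genes, 9 fell, beside 7.34% of all genes, and the class median was again -0.64. HIST1H2BI had the largest fall, at 15.4 and 10.6 CPM in shZMYND8, 31.5 and 49.7 CPM in shJARID1D, and 28.0 and 37.2 CPM in shLuciferase (log2 fold change -1.33 ± 0.25, adjusted p = 0.00704 by edgeR). HIST2H2BE measured 299.9 and 347 CPM in shZMYND8, 462 and 512 CPM in shJARID1D, and 445 and 541 CPM in shLuciferase (-0.61 ± 0.14, adjusted p = 0.0168). HIST1H2BC measured 253 and 312 CPM in shZMYND8, 350.3 and 439 CPM in shJARID1D, and 409 and 471 CPM in shLuciferase (-0.64 ± 0.15, adjusted p = 0.0217). In these genes both shZMYND8 libraries were below all 4 others. HIST1H2BD measured 178 and 223 CPM in shZMYND8, 246 and 345 CPM in shJARID1D, and 309 and 371 CPM in shLuciferase (-0.76 ± 0.18, adjusted p = 0.0199). HIST1H2BK measured 338 and 369 CPM in shZMYND8, 354 and 423 CPM in shJARID1D, and 312 and 409 CPM in shLuciferase. Its groups overlapped and its log2 fold change was -0.03 ± 0.15 (adjusted p = 0.917), although it belongs with HIST1H2BC, HIST1H2BD and HIST2H2BE to the H2B genes known to give polyadenylated RNA.

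H3 had the lowest class median, -0.88, and 5 of its 10 tested genes fell, beside 7.34% of all genes. HIST1H3G measured 12.2 and 13.5 CPM in shZMYND8, 53.6 and 80.9 CPM in shJARID1D, and 52.9 and 67.2 CPM in shLuciferase. Its fall of 2.22 ± 0.21 on the log2 scale (adjusted p = 0.00045 by edgeR) was the largest of any member. With any single library left out it stayed between -2.39 and -2.05, with an adjusted p between 0.000201 and 0.00792. HIST1H3I measured 12.04 and 10.7 CPM in shZMYND8, 20.5 and 28.2 CPM in shJARID1D, and 21.2 and 28.8 CPM in shLuciferase (-1.14 ± 0.20, adjusted p = 0.00495). The H3 genes with the most counts also fell. HIST1H3H measured 269.7 and 275 CPM in shZMYND8, 435 and 596 CPM in shJARID1D, and 427 and 571 CPM in shLuciferase (-0.87 ± 0.18, adjusted p = 0.0102). HIST1H3B measured 275 and 338 CPM in shZMYND8, 364 and 527 CPM in shJARID1D, and 431 and 553 CPM in shLuciferase (-0.68 ± 0.19, adjusted p = 0.0398). Both have shZMYND8 libraries below every other library. HIST1H3G and HIST1H1B were the only members of the 27 to pass in each of the 19 alternative fits read at the same threshold, and the other 25 were lost in at least 1 of them.

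Of 11 tested H4 genes, 4 fell, beside 7.34% of all genes, with a class median of -0.58. HIST1H4L measured 5.31 and 5.71 CPM in shZMYND8, 10.8 and 17.2 CPM in shJARID1D, and 10.2 and 13.9 CPM in shLuciferase (log2 fold change -1.13 ± 0.25, adjusted p = 0.0131 by edgeR). HIST1H4C measured 125 and 164 CPM in shZMYND8, 184 and 267 CPM in shJARID1D, and 221 and 237 CPM in shLuciferase (-0.67 ± 0.19, adjusted p = 0.0368). HIST1H4B measured 119 and 158 CPM in shZMYND8, 169.9 and 251 CPM in shJARID1D, and 173 and 221 CPM in shLuciferase, and did not pass (-0.51 ± 0.21, adjusted p = 0.126). In all of these the shZMYND8 libraries lay below the shLuciferase libraries, as they did in 27.8% of all genes. HIST4H4, the single member on chromosome 12, measured 87.1 and 106 CPM in shZMYND8, 87.1 and 115 CPM in shJARID1D, and 106 and 134 CPM in shLuciferase (-0.31 ± 0.17, adjusted p = 0.250).

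**Figure D4:**
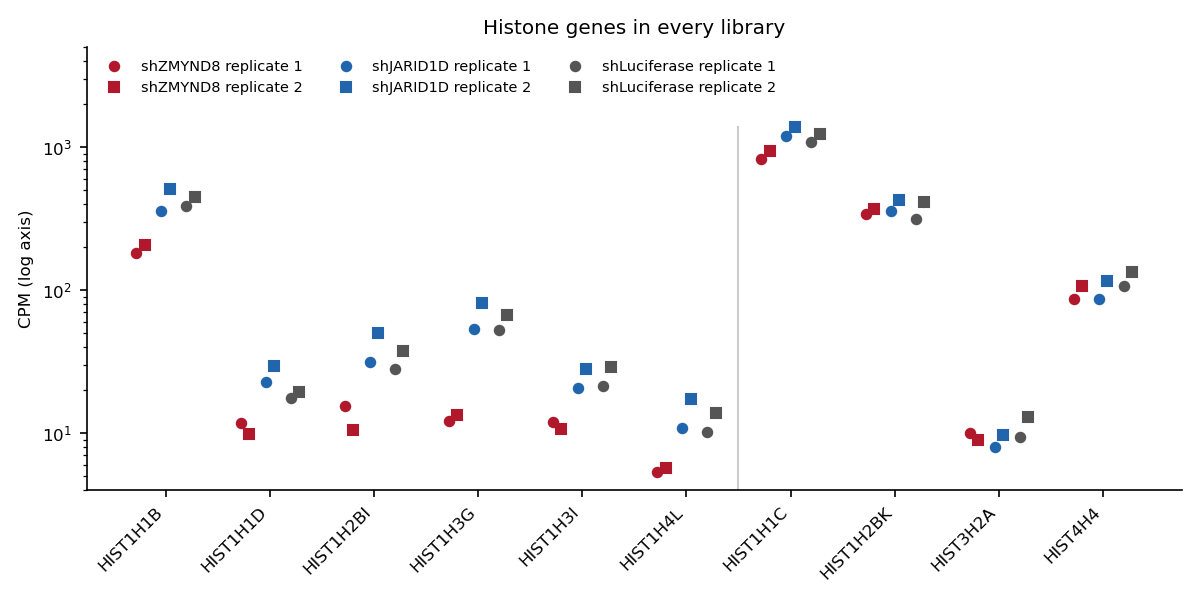
CPM (log axis) in every library of 6 members called lower in shZMYND8 than in shLuciferase (left of the grey line) and of 4 members not called (right). The shZMYND8 points of HIST1H3G, at 12.2 and 13.5 CPM, lie far below the other groups, while those of HIST1H2BK and HIST3H2A lie among them.

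Position and polyadenylation were compared by counts alone, for shZMYND8 against shLuciferase, where 7.34% of all genes tested passed as lower. Among HIST1 genes 25 of 44 tested members fell, against 2 of 10 HIST2, 0 of 2 HIST3 and 0 of 1 HIST4 genes, while the medians of HIST1 and HIST2 were both -0.65. The tested HIST2 entries HIST2H2AA4, HIST2H2BA, HIST2H2BC, HIST2H3C and HIST2H4A averaged under 1 CPM, and none passed. The same held for HIST1H1T, HIST1H2BE, HIST1H3J and HIST1H4I among the HIST1 genes. Level and position were not separated in these counts. On chromosome 6 the 50 HIST1 members with a single RefSeq match, of 55, lie in 2 stretches, split here at the widest gap. The other 5, HIST1H2BC, HIST1H2BE, HIST1H2BF, HIST1H2BG and HIST1H2BI, each matched 2 entries and were not placed, and 3 of them (HIST1H2BC, HIST1H2BF and HIST1H2BI) fell. In the stretch from HIST1H2AA to HIST1H4H, 11 of 19 tested and placed genes fell (median -0.66), and in that from HIST1H2BJ to HIST1H2BO 11 of 20 fell (median -0.67). Members known to be made also as polyadenylated RNA had 4 of 8 lower and a median of -0.50, and the rest 23 of 49 and -0.65. The sources used here do not say whether polyadenylated RNA was selected, so the counts may draw unequally on stem-loop and polyadenylated messages of each gene. That was not tested.

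Divergent H2A and H2B pairs share a promoter, and pairs were sought only among the 56 members with a matched window. Of the pairs found, 6 had both genes tested. The 13 members without a window could not be paired, so further pairs may be missing. Tested genes among these 13 include HIST1H2AH, HIST1H2BC, HIST1H2BF and HIST1H2BG. In shZMYND8 both genes fell in the pairs HIST1H2AK with HIST1H2BN (log2 fold changes -0.98 and -0.68) and HIST1H2AM with HIST1H2BO (-0.92 and -0.62), and the printed HIST1H2AM promoter belongs to this second pair. In 3 pairs a single gene passed. HIST1H2AG fell by 0.81 beside HIST1H2BJ at -0.51, and HIST2H2BE fell by 0.61 beside HIST2H2AC at -0.51. HIST1H2AJ fell by 0.69 beside HIST1H2BM at 0.14, which had 7.37 and 6.01 CPM in shZMYND8, 7.58 and 12.8 CPM in shJARID1D, and 5.28 and 6.85 CPM in shLuciferase. Neither gene of HIST3H2A and HIST3H2BB passed (-0.24 and -0.36). Over all genes tested, 7.34% passed as lower. The difference within a pair was not tested.

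In shJARID1D no member passed against shLuciferase, in either direction, by edgeR, DESeq2 or limma voom, and 6 reached an unadjusted p under 0.05 by edgeR. Over all genes 2.79% passed as lower and 2.96% as higher. The member median was 0.03, against 0.00 for all genes, with 24 members negative and 33 positive, and the smallest adjusted p was 0.106. The 6 with a low unadjusted p were all above the control: HIST1H4I, HIST1H2BM, HIST1H2BG, HIST1H1D, HIST1H2AE and HIST2H2AB. Among them HIST1H1D had a log2 fold change of 0.49 ± 0.16 (adjusted p = 0.109). HIST1H1B stood at 0.06 ± 0.17 (adjusted p = 0.870) and HIST1H3G at 0.16 (adjusted p = 0.651). The direction of the median was set by single libraries: it was 0.25 without shJARID1D replicate 1, -0.18 without shJARID1D replicate 2, -0.11 without shLuciferase replicate 1 and 0.27 without shLuciferase replicate 2. Scaling by library totals moved it to 0.11 and left 17 members negative, with all genes at 0.09.

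Against shJARID1D, with the same shZMYND8 libraries, 26 of 57 members were lower in shZMYND8 and none higher by edgeR, DESeq2 or limma voom, with 45 at an unadjusted p under 0.05. Over all genes 7.02% passed as lower and 8.67% as higher. The member median was -0.62, against 0.00 for all genes. By class 4 of 5 H1, 8 of 14 H2A, 6 of 17 H2B, 4 of 10 H3 and 4 of 11 H4 genes fell. The largest falls were those of HIST1H3G (-2.39 ± 0.21, adjusted p = 0.00038), HIST1H2BI (-1.64, adjusted p = 0.00344), HIST1H4L (-1.34, adjusted p = 0.0076) and HIST1H1D (-1.27 ± 0.17, adjusted p = 0.00199). HIST1H1C also fell (-0.55, adjusted p = 0.0249). The count was 6 without shZMYND8 replicate 1, 5 without shZMYND8 replicate 2, 5 without shJARID1D replicate 2 and 41 without either shLuciferase library, while 25 passed without shJARID1D replicate 1. This comparison tests the difference between the 2 knockdowns directly.

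Genes that act with the histone genes were counted in lists. Against shLuciferase, 7.34% of all genes tested passed as lower and 8.89% as higher in shZMYND8. The same shares in shJARID1D were 2.79% and 2.96%. In shZMYND8 against shLuciferase, replacement histones had 5 of 12 lower, with a median of -0.43. CENPA, the centromeric H3, measured 27.1 and 29.5 CPM in shZMYND8, 46.8 and 50.6 CPM in shJARID1D, and 56.4 and 62.1 CPM in shLuciferase (log2 fold change -1.07 ± 0.12, adjusted p = 0.000817 by edgeR). H2AFZ (-0.62, adjusted p = 0.0067), H1FX (-0.71, adjusted p = 0.00873), H3F3B and H3F3C fell too. In shJARID1D, H2AFV alone of the 12 passed, and it rose (0.53, adjusted p = 0.0411).

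Of 8 factors of histone gene transcription, 2 were lower in shZMYND8, the S-phase cyclin gene CCNA2 (-0.71, adjusted p = 0.0138 by edgeR) and its kinase partner CDK2 (-0.36, adjusted p = 0.0469). CDK2 also fell in shJARID1D (-0.49, adjusted p = 0.0340). NPAT measured 61.4 and 60.2 CPM in shZMYND8, 73.0 and 69.2 CPM in shJARID1D, and 71.2 and 56.8 CPM in shLuciferase, and did not pass (-0.07, adjusted p = 0.750). Of 15 genes of 3′ end processing, 3 were lower and 1 higher in shZMYND8, with a median of -0.15. SLBP, which binds the stem-loop, measured 115 and 112 CPM in shZMYND8, 132 and 136 CPM in shJARID1D, and 149 and 147 CPM in shLuciferase (-0.38 ± 0.11, adjusted p = 0.0406). SNRPE, an Sm core protein gene, fell by 0.91 (adjusted p = 0.0144), and NCBP1, a subunit of the cap-binding complex, by 0.41 (adjusted p = 0.0313). LSM11, a protein specific to the U7 particle, rose, at 13.1 and 14.9 CPM in shZMYND8, 6.13 and 6.39 CPM in shJARID1D, and 5.96 and 6.98 CPM in shLuciferase (1.11 ± 0.17, adjusted p = 0.00278). Its shZMYND8 libraries stood above all others. None of 6 genes of histone mRNA decay passed, and 1 of 23 chaperone genes did, the CENPA chaperone HJURP (-0.68, adjusted p = 0.00971). Beside these lists, 7.34% of all genes passed as lower in shZMYND8 and 8.89% as higher. In lists this short, 1 or 2 passing genes do not stand out from those shares.

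Genes of DNA replication and mitosis were counted in the same way. Over all genes, 7.34% passed as lower in shZMYND8 and 2.79% in shJARID1D. Of 31 tested DNA replication genes, 5 were lower in shZMYND8 than in shLuciferase (median -0.25), among them DBF4, the activator of the CDC7 kinase (-0.75, adjusted p = 0.0039 by edgeR), the origin recognition gene ORC6 (-0.68, adjusted p = 0.00951) and the clamp loader gene RFC3 (-0.59, adjusted p = 0.0112). All 18 mitotic genes were lower (median -0.82), such as the kinetochore gene NUF2 (-1.46), the spindle midzone gene PRC1 (-1.22) and the kinase gene CDK1 (-0.95). In shJARID1D, 0 of 31 replication genes and 1 of 18 mitotic genes, AURKA, passed as lower, with medians of -0.04 and -0.33. The part of cell cycle stage in the histone values was not tested. Among marker lists of other cell types, fibroblast markers summed to 5.58 to 5.66 CPM in shZMYND8, 2.27 to 3.64 CPM in shJARID1D and 1.24 to 2.26 CPM in shLuciferase, with 1 of 4, COL1A1, passing and DCN at 0, and the leukocyte and endothelial lists each stayed below 2.5 CPM. Their part in the histone values was not tested.

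**Figure D5:**
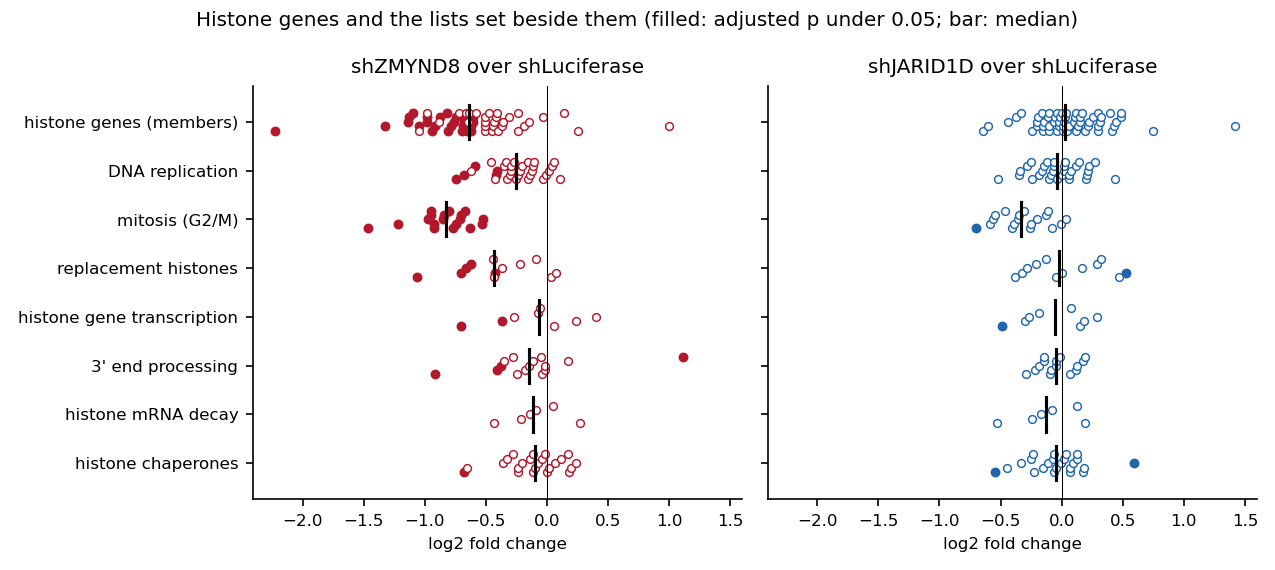
Log2 fold change over shLuciferase (horizontal axis) of the tested members and of each listed gene, in shZMYND8 (left) and shJARID1D (right), with list medians as black bars and filled points at an adjusted p under 0.05. On the left the histone genes (median -0.64) and the mitotic genes (median -0.82) lie lowest, and the replication genes (median -0.25) lie between them and 0.

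The 12 untested members were low throughout. HIST1H2APS1, HIST1H2BH, HIST1H4F and HIST1H4G had no fragment in any library. HIST1H4E had the most, with 7 and 17 fragments in shZMYND8, 5 and 6 in shJARID1D, and 3 and 5 in shLuciferase. HIST1H2BB had 6 and 4 in shZMYND8, 2 and 10 in shJARID1D, and 0 and 3 in shLuciferase. The remaining 6, HIST1H1A, HIST1H2AA, HIST1H2BA, HIST1H3C, HIST1H3E and HIST3H3, had 0 to 3 fragments in each library. Histone genes of a class are near copies in their coding sequence. The sources used here do not say how reads shared between such genes were counted. The values of single members may therefore be less certain than the class sums. HIST2H4A, HIST2H3C and HIST2H2AA4, each of which has a near-identical twin in the genome, were under 1 CPM on average. Strandedness of the libraries is not given, so reads of a gene and of an overlapping antisense transcript cannot be told apart.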

How the data were processed

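RNA was sequenced in 6 DU145 libraries, and the 29 chromatin immunoprecipitation and input samples of the series were not analysed here. The deposited values are expected counts, which the authors' software estimated for each gene. Cuffdiff, TopHat2 2.0.12, Bowtie 1.1.2, edgeR 3.12.0 and hg19 appear in the submitters' processing notes without their roles, and no source used here gives the annotation. Standard Illumina libraries were made from total RNA, per the labels' protocols. Columns named Rac7_KO were read as shZMYND8, assuming that Rac7 is RACK7, another name of ZMYND8. The deposited counts carry a scaling in which 1 fragment counts as 0.881 to 1.16.

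Counts were rounded, and 60 genes marked as not quantified in at least 1 library, none of them a member, were left out. The test was the quasi-likelihood F test of edgeR 4.0.16 under R 4.3.3 (TMM factors of 0.966 to 1.057, filterByExpr by group, all 6 libraries in the fit, Benjamini-Hochberg over 15867 genes, threshold 0.05). Residual degrees of freedom were 3, and the common biological variation was 12.3%. Standard errors are the log2 fold change divided by the square root of F. A gene with no fragments was given a limit of 3 fragments, counting error only. The 18 variance columns were not used. DESeq2 1.42.0, limma 3.58.1 (voom), other scalings, filters, fits and thresholds, and each library left out, were tried as alternatives. The fitting scripts were tested on simulated data.

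Named were the 2 members with the most counts in each class, the 4 largest falls and rises past the threshold in each comparison, every tested member known to give polyadenylated RNA, up to 3 passing genes per other list, SLBP, NPAT and the targets. The lists and members were chosen with earlier results of these data known. Names were matched to RefSeq (GRCh38.p14), with 64 members matching 1 entry and 5 H2B genes matching 2. Promoter sequences come from RefSeq as well, on the same build. Figures were drawn with matplotlib 3.10.9 in Python 3.11.15.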

Additional observations from a re-analysis of the deposited data

How the results depend on the processing

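The count of members lower in shZMYND8 than in shLuciferase, 27, became 8 at an adjusted p under 0.01 and 41 with a replicate block, and ran from 4 to 42 with 1 library left out. It was 27 or 28 under the other scalings, 33 with DESeq2, 27 with limma voom, 30 with only those 2 groups fitted and 18 without a filter. In shJARID1D against shLuciferase the count of 0 became 2 with the replicate block, HIST1H2AE (adjusted p = 0.0497) and HIST1H2BG (adjusted p = 0.0496), both higher. In shZMYND8 against shJARID1D the count of 26 became 14 at an adjusted p under 0.01, 42 with the block and 41 with only those 2 groups fitted, and ran from 5 to 41 with 1 library left out. The causes were not tested. Over all genes, replicate differences correlated weakly between groups, at 0.0969 (shZMYND8 and shJARID1D), 0.0925 (shZMYND8 and shLuciferase) and 0.170 (shJARID1D and shLuciferase). The block was therefore not used in the report. Of the 57 tested members, however, replicate 2 was higher for 45 in shZMYND8, 53 in shJARID1D and 55 in shLuciferase. Whether same-numbered libraries belong together was not tested for these genes.

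The log2 ratio of summed H1 levels between shZMYND8 and shLuciferase, -0.57, was -0.74 without HIST1H1C, and that between shJARID1D and shLuciferase, 0.09, ran from -0.075 to 0.24 with 1 library left out. No result past the threshold changed direction under any alternative run. A library left alone in its group was assumed to vary like the others. An alternative that adds entries joining a histone name to another by a comma gave no value, since the table has 0 of them. With 2 libraries a group, a member that did not pass was not shown to be unchanged.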
